A study of Rattus norvegicus with 9 samples.

Results

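Leptomeningeal fibroblasts build the pia and arachnoid, the thin membranes that wrap the brain, and 7 of their marker genes were followed through female puberty: Dcn, Lum, Fmod, Ogn, Mgp, Slc6a13 and Ptgds. The genes were chosen from a list of names, and every probe set whose platform annotation gave only that gene's symbol was taken. That gave 7 of 14217 genes and 10 of 31042 probe sets, 4 of them for Ogn and 1 for each other gene. The samples were hypothalami of normally developing female rats on Affymetrix expression arrays. Juvenile animals were 26 days old and are named as controls in the labels, early pubertal animals were 29 days old and late pubertal animals were 31 days old. Each stage had 3 arrays, each from the hypothalamus of 1 rat, numbered 1, 2 and 3 (juvenile), 7, 8 and 10 (early pubertal) and 12, 14 and 20 (late pubertal), and values below follow that order. The series asked which genes change across the hypothalamus during normal sexual maturation. The animals carried no stated treatment or allele, and the strain is not given in the sources used here.

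Pial and arachnoid fibroblasts secrete the collagen-rich matrix between the brain surface and the skull, and carry transporters that move solutes between the cerebrospinal fluid and blood. Decorin, lumican, fibromodulin and osteoglycin, encoded by Dcn, Lum, Fmod and Ogn, belong to the small leucine-rich proteoglycans, which bind collagen and set the spacing of its fibrils. Mgp encodes matrix Gla protein, a vitamin K-dependent inhibitor of calcification that vessel walls make as well. Slc6a13 encodes GAT2, a GABA and taurine transporter, and Ptgds encodes lipocalin-type prostaglandin D synthase, which oligodendrocytes and choroid plexus also express. A dissected hypothalamus carries the membrane that adheres to its lower surface, so in these bulk samples fewer fibroblasts and less RNA per fibroblast cannot be told apart.

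Some of these genes are neighbours in the GRCr8 rat assembly. Dcn and Lum lie next to each other on chromosome 7, followed by the proteoglycan genes Kera and Epyc. Ogn lies on chromosome 17 beside Omd and Aspn, and Fmod on chromosome 13 beside Prelp. Slc6a13 and Mgp are both on chromosome 4, Slc6a13 beside the related transporter gene Slc6a12, and Ptgds is on chromosome 3. The RefSeq promoter table held windows for Lum, Fmod, Ogn and Ptgds, and Dcn, Mgp and Slc6a13 are named only. The 4 windows are printed because, in the values below, Lum and the brightest Ogn probe set varied together from array to array. Fmod varied with them more loosely and Ptgds did not. Each runs 5′ to 3′ on the gene's strand in the GRCr8 build, with 250 bases before and 50 after the start, and matches to 5 short motifs are in capitals.
Lum, chr7:34245456-34245755, plus strand: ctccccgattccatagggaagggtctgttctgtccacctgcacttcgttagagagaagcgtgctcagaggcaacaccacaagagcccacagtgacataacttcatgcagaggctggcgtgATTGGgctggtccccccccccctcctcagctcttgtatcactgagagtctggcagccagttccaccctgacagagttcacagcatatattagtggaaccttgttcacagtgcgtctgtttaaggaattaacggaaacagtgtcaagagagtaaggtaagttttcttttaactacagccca
Ogn, chr17:15258946-15259245, minus strand: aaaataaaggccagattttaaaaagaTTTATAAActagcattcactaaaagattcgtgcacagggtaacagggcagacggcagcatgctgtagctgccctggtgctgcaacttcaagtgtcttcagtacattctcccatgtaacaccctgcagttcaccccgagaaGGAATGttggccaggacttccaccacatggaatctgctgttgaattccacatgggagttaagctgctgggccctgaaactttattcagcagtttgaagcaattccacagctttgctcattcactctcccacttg
Fmod, chr13:48045317-48045616, plus strand: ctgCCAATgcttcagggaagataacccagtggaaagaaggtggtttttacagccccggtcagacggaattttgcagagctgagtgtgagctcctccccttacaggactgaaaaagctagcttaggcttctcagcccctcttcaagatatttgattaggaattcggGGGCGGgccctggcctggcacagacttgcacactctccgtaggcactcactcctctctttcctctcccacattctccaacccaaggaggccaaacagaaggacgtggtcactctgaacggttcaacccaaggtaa
Ptgds, chr3:28682929-28683228, minus strand: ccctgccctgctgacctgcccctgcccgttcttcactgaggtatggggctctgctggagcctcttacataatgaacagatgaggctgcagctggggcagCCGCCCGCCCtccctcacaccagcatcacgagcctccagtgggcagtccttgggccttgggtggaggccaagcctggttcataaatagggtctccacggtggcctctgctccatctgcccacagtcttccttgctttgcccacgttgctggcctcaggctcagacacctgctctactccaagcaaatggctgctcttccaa

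The search covered both strands. It looked for TATAAA, the letters of a TATA box, and for CCAAT, those of a CCAAT box. It also looked for GGGCGG, a GC box, for TGANTCA, an AP-1 site in which N is any base, and for GGAATG, a TEAD site. In the Ogn window the TATA letters were found on both strands in overlapping letters 222 and 224 bases before the start, and the TEAD letters 84 bases before it. The CCAAT letters were found in the Lum and Fmod windows, and the GC box in the Fmod window and, as 2 overlapping matches on the opposite strand, in the Ptgds window. Of 33469 promoters of the same length, 14.2% hold the TATA letters, 37.5% the CCAAT letters, 33.1% the GC box, 7.33% the AP-1 site and 14.2% the TEAD site. No motif was in all 4 windows, and a match is a description of the letters only.

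Signals are MAS5 intensities, taken here as log2(signal + 16) after quantile normalization between arrays, and called levels. All 10 probe sets passed the filter on dim probe sets, a mean level above the 40th percentile. Ptgds ranked 8 among 31042 probe sets by its mean level. The brightest Ogn probe set stood at the 96.1 percentile, Mgp at 96.6, Dcn at 90.1, Lum at 88.5, Fmod at 80.5 and Slc6a13 at 71.3. Of 42 other leptomeningeal and fibroblast markers, 40 have a probe set and 36 passed the same filter, while the transcription factor genes Foxc1, Tbx18, Zic1 and Osr1 did not enter the test. Of 18 markers of hypothalamic neurons, 16 passed it. Median deposited signals ran from 102 to 113 on juvenile, 79.8 to 101 on early pubertal and 102 to 122 on late pubertal arrays, so levels before normalization differed in overall brightness. The 3′ to 5′ ratio of beta-actin, which rises as RNA degrades, ran from 2.40 to 3.16, 2.14 to 2.86 and 2.27 to 3.24 in the same stages.

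Decorin was lowest on juvenile arrays on average and nearly uniform on late pubertal ones. Its levels were 9.32, 9.82 and 9.16 in juvenile, 9.67, 9.62 and 10.01 in early pubertal and 9.81, 9.88 and 9.83 in late pubertal animals. Juvenile replicate 2 alone kept the juvenile range from separating from the late pubertal one. Dcn differed by 0.41 ± 0.15 (log2, SE, n = 3 per stage) between late pubertal and juvenile animals, or 1.33-fold, with an unadjusted limma p of 0.0214 and an adjusted p of 0.9998. Between early pubertal and juvenile animals it differed by 0.33 ± 0.15. Leaving out 1 array moved the late pubertal difference of Dcn to between 0.27 (without juvenile replicate 3) and 0.60 (without juvenile replicate 2), and the early pubertal one to between 0.20 and 0.53.

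Lumican, its neighbour in the genome, had levels of 9.27, 9.72 and 9.06 in juvenile, 9.61, 9.04 and 9.77 in early pubertal and 9.58, 9.78 and 9.64 in late pubertal animals. The early pubertal stage held the lowest array of all, replicate 8, and one of the highest, replicate 10. The Lum difference was 0.32 ± 0.19 between late pubertal and juvenile animals and 0.13 ± 0.19 between early pubertal and juvenile animals, and the ranges of all stages overlapped. Without juvenile replicate 2 the late pubertal difference was 0.50, and without juvenile replicate 3 it was 0.17. The early pubertal difference of Lum changed sign to −0.022 without early pubertal replicate 10 and to −0.015 without juvenile replicate 3.

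Fibromodulin was the proteoglycan with the smallest within-stage spread. Fmod levels were 8.58, 8.53 and 8.64 in juvenile, 8.85, 8.53 and 8.94 in early pubertal and 9.05, 8.90 and 9.004 in late pubertal animals. Every late pubertal array lay above every juvenile one, and early pubertal replicate 8 lay within the juvenile range. The difference between late pubertal and juvenile animals was 0.40 ± 0.12, or 1.32-fold, with an unadjusted limma p of 0.00493, the smallest among the 10 probe sets, and an adjusted p of 0.9998. Leaving out any array kept this difference between 0.37 and 0.44. Between late and early pubertal animals Fmod differed by 0.21 ± 0.12, and by 0.089 without early pubertal replicate 8. Between early pubertal and juvenile animals it differed by 0.19 ± 0.12, by 0.31 without that replicate and by 0.11 without early pubertal replicate 10.

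Osteoglycin was measured by 4 probe sets, whose levels correlated with each other at r = 0.71 to 0.96 over the 9 arrays, given as a description because they share a gene and the arrays. The brightest, 1376749_at, had levels of 10.39, 10.74 and 10.29 in juvenile, 10.63, 10.35 and 11.05 in early pubertal and 10.61, 10.85 and 10.89 in late pubertal animals. It differed by 0.31 ± 0.16 between late pubertal and juvenile animals, whose ranges overlapped through juvenile replicate 2. On 1383263_at the same replicate was not raised, with levels of 10.32, 10.19 and 10.17 in juvenile, 10.53, 10.27 and 10.90 in early pubertal and 10.50, 10.63 and 10.79 in late pubertal animals. On that probe set late pubertal and juvenile arrays did not overlap, with a difference of 0.41 ± 0.13. The other 2 Ogn probe sets both gave 0.36 between those stages, with SEs of 0.20 and 0.19. The early pubertal difference of Ogn ran from 0.16 to 0.34 over the 4 probe sets, from −0.032 to 0.17 without early pubertal replicate 10 and from 0.36 to 0.49 without early pubertal replicate 8.

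Matrix Gla protein had levels of 10.35, 10.71 and 10.47 in juvenile, 10.90, 10.55 and 11.18 in early pubertal and 10.86, 10.89 and 10.87 in late pubertal animals. The 3 late pubertal arrays lay within 0.027 of each other and above all juvenile arrays, whereas the early pubertal ones spread over 0.64. Mgp differed by 0.36 ± 0.14 between late pubertal and juvenile animals and by 0.36 ± 0.14 between early pubertal and juvenile animals. Unadjusted limma p was 0.0210 and 0.0204, and adjusted p was 0.9998 and 0.994. Without early pubertal replicate 10 the early pubertal difference of Mgp was 0.21.

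The GABA transporter gene Slc6a13 had another order of arrays. Its levels were 8.02, 7.40 and 8.12 in juvenile, 8.03, 8.37 and 8.54 in early pubertal and 8.09, 8.54 and 8.22 in late pubertal animals. Juvenile replicate 2, the highest juvenile array for Dcn, Lum, Mgp and the brightest Ogn probe set, was the lowest of all 9 arrays for Slc6a13. The transporter differed by 0.46 ± 0.20 between early pubertal and juvenile animals and by 0.43 ± 0.20 between late pubertal and juvenile animals, and the stages overlapped in both comparisons. Without juvenile replicate 2 these values were 0.24 and 0.21.

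Prostaglandin D synthase had the narrowest range of the 7 genes. Ptgds levels were 13.06, 12.98 and 13.10 in juvenile, 13.06, 13.12 and 13.12 in early pubertal and 13.12, 13.08 and 13.12 in late pubertal animals. Its within-stage SD of 0.044 was at the 1.10 percentile of the tested probe sets, and its differences were 0.052 ± 0.041 for early pubertal and 0.062 ± 0.041 for late pubertal against juvenile animals. Without juvenile replicate 2 these values were 0.019 and 0.027. At the top of the signal range quantile normalization leaves few distinct values, and several arrays share the same Ptgds level. As deposited, its signals ran from 7931 to 9411 over the 9 arrays.

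**Figure D1:**
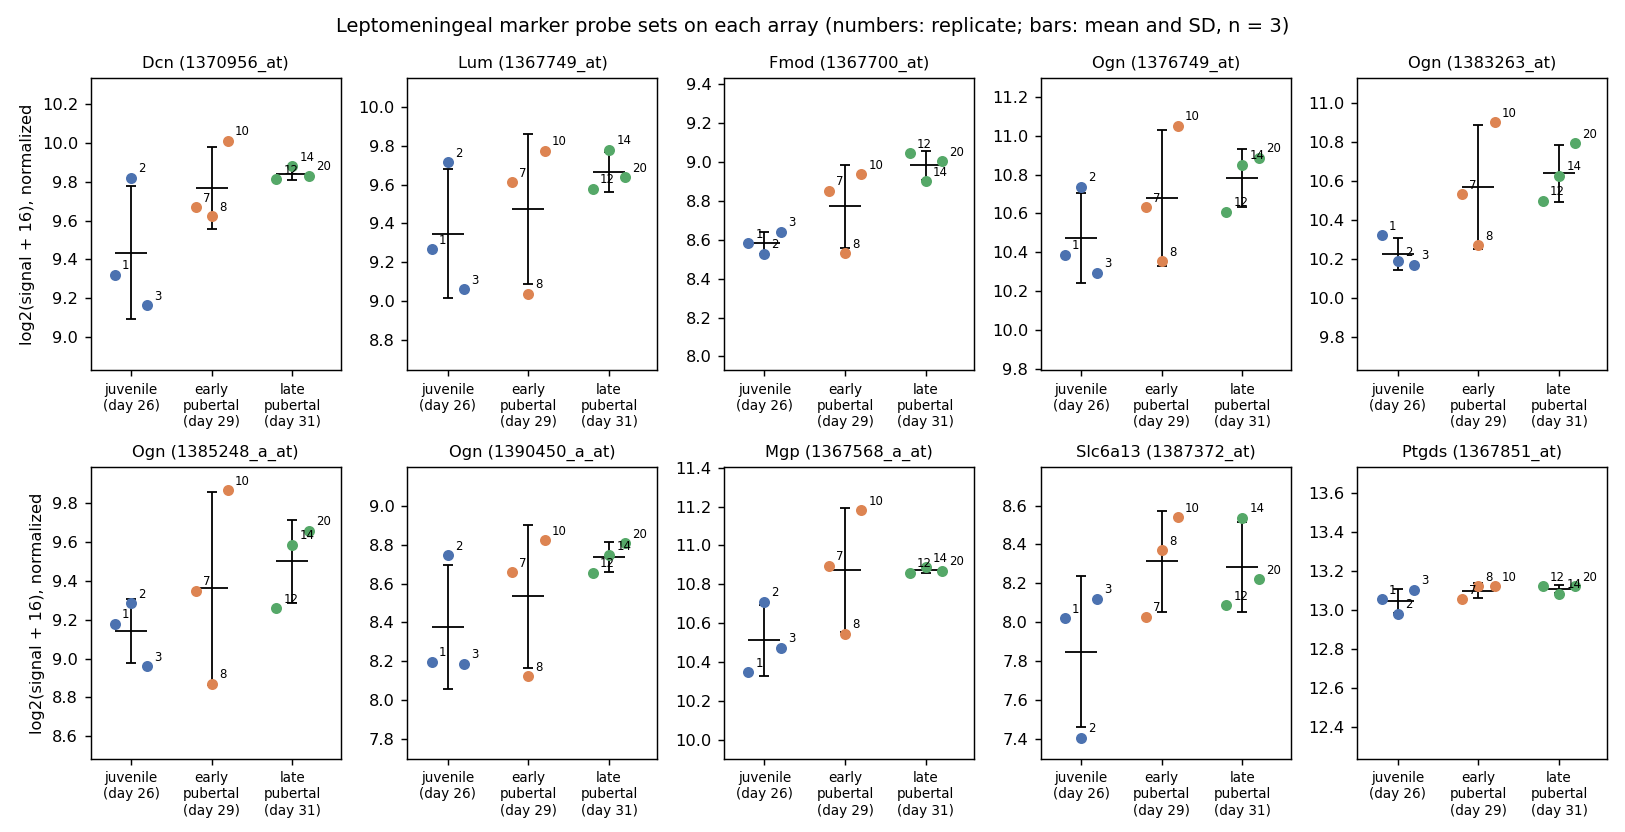
Level of each probe set, log2(signal + 16) after normalization, on each array by stage; points are arrays labelled with their replicate number, and bars are the mean and SD of 3 arrays. Early pubertal replicates 8 and 10 lie far apart for Lum, Ogn and Mgp, the late pubertal arrays of Dcn and Mgp nearly coincide, and all panels span the same height on the log2 axis.

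Set side by side, all 10 probe sets had a positive difference between late pubertal and juvenile animals, with a median of 0.36. The median over all 18625 tested probe sets was −0.0015, and 49.6% of those had a positive difference. None of the 10 passed limma with Benjamini-Hochberg adjustment over all tested probe sets, where 0% was called. An unadjusted p under 0.05 was reached by 4 of the 10, those of Dcn, Fmod, Mgp and Ogn 1383263_at, all with higher late pubertal levels, beside 2.23% of all tested probe sets in that direction. Late pubertal and juvenile arrays did not overlap for 3 of the 10, those of Fmod, Mgp and Ogn 1383263_at, beside 5.9% of all tested probe sets in that direction. With correlated genes among the 7, 4 probe sets of 1 gene and members chosen with these results known, the counts are a description. By the moderated F test over the 3 stages 4 of 10 had an unadjusted p under 0.05, beside 4.22% of all, and adjusted p was 0.974 for each.

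Between early pubertal and juvenile animals all 10 differences were positive as well, with a median of 0.21, while 49.6% of all tested probe sets were positive. An unadjusted p under 0.05 was reached by 3, those of Mgp, Slc6a13 and Ogn 1383263_at, beside 1.92% of all tested probe sets in that direction, and 0% passed after adjustment. The arrays of these stages overlapped for all 10, while 3.86% of all tested probe sets were higher without overlap. The median difference was 0.074 without early pubertal replicate 10 and 0.39 without early pubertal replicate 8. At the level as deposited, where early pubertal arrays were dimmer by a median of −0.24 over all tested probe sets, the median of the 10 was −0.033, and Lum, Fmod, Ptgds and 3 of the Ogn probe sets changed sign.

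Between late and early pubertal animals 8 of 10 differences were positive, beside 50.1% of all tested probe sets, with a median of 0.088, and 0 had an unadjusted p under 0.05, where 2.94% of all did in the direction of higher late pubertal levels. None passed after adjustment, where 0% was called, and all 10 overlapped, beside 5.97% of all that were higher without overlap. Mgp and Slc6a13 had values of −0.0020 ± 0.14 and −0.030 ± 0.20. The comparisons with juvenile animals share the same 3 juvenile arrays, so their agreement in sign is not separate evidence.

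**Figure D2:**
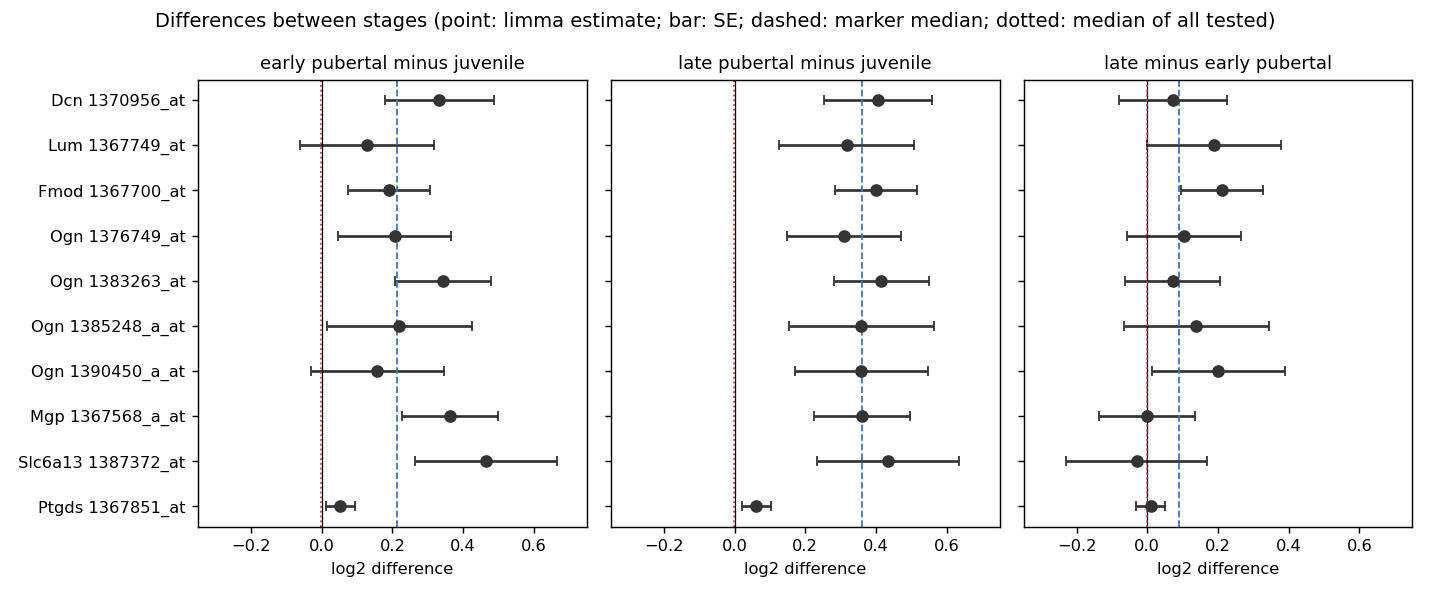
Log2 differences between stages for each probe set, with points for the limma estimates and bars for the SE (n = 3 per stage); dashed lines are the median of the 10 probe sets and dotted lines that of all tested probe sets. Against juvenile animals all points lie right of 0 with a marker median of 0.21 in early and 0.36 in late pubertal animals, and between late and early pubertal animals the points surround 0.088.

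Animals of one stage differed from each other in most of these genes. The within-stage SD was 0.30 for Lum, 0.26 for the brightest Ogn probe set, 0.23 for Dcn, 0.21 for Mgp and 0.13 for Fmod, against a median of 0.17 over all tested probe sets. Deviations within stages made up 78.1% of the total variation of Lum, 72.9% of that of the brightest Ogn probe set, 53.8% of that of Dcn, 50.8% of that of Mgp and 31.2% of that of Fmod. Deviations within stages hold 75% of the degrees of freedom. Averaged over Dcn, Lum, Fmod, Ogn and Mgp, the log2 deviation from the gene mean was −0.29, 0.031 and −0.34 on juvenile, 0.061, −0.25 and 0.32 on early pubertal and 0.11, 0.19 and 0.17 on late pubertal arrays. Early pubertal replicate 10 was the highest of the 9 arrays, and it was also the array with the lowest median deposited signal, 79.8. As deposited, before any normalization, the signals on that array were 2018 for Mgp and 1819 for the brightest Ogn probe set, above the juvenile maxima of 1720 and 1747. Those of Dcn (860), Lum (724) and Fmod (392) lay within the juvenile ranges of 545 to 935, 508 to 871 and 373 to 432. By array, the beta-actin 3′ to 5′ ratio was 2.40, 3.16 and 2.62 on juvenile and 2.62, 2.14 and 2.86 on early pubertal arrays. On late pubertal arrays it was 2.82, 2.27 and 3.24. Among early pubertal arrays the actin ratio had the same order as the averaged deviations, and juvenile replicate 2 was the highest juvenile array in both. The 3′ to 5′ ratio of GAPDH was 0.967, 1.016 and 0.948 on juvenile and 0.973, 0.957 and 0.991 on early pubertal arrays. On late pubertal arrays the GAPDH ratio was 0.984, 0.983 and 0.985. It had the same order as the averaged deviations among juvenile and among early pubertal arrays. Among late pubertal arrays the order of both ratios differed from that of the deviations. The part of array brightness and RNA quality in the deviations was not tested.

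**Figure D3:**
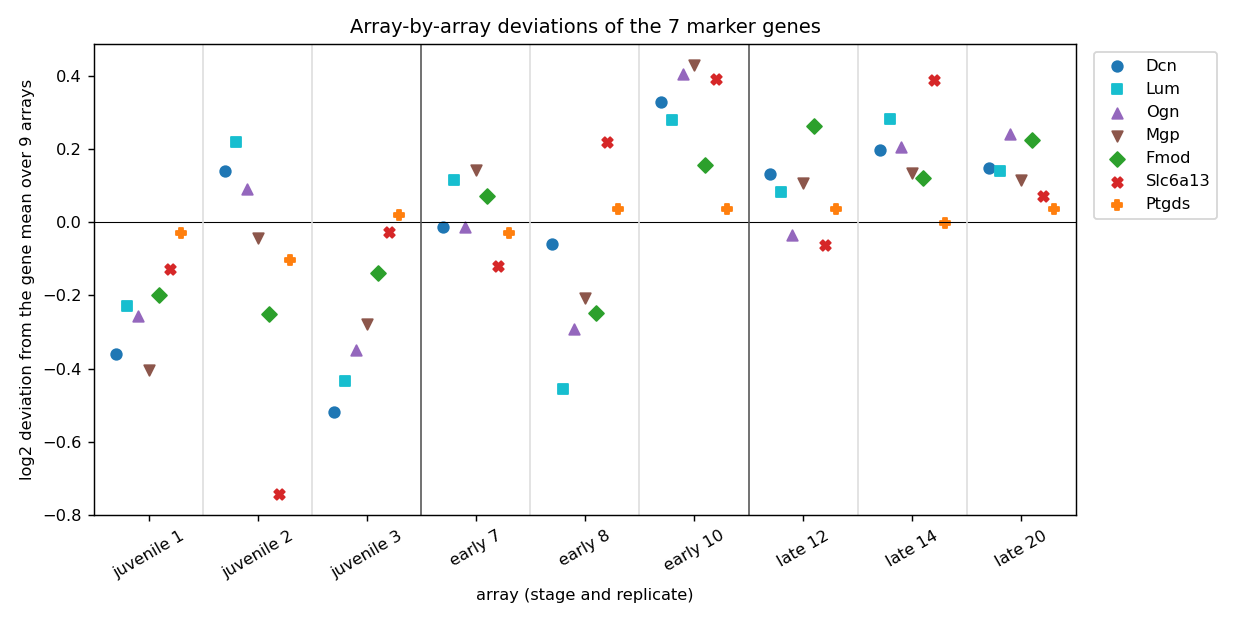
Deviation of each gene from its own mean over the 9 arrays, in log2, by array; each symbol is 1 gene, with the brightest probe set for Ogn. On early pubertal replicate 10 all 7 genes lie above 0, on juvenile replicate 2 Slc6a13 lies far below the others, and on early pubertal replicate 8 Slc6a13 and Ptgds lie above 0 while the other 5 genes lie below it.

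Dcn, Lum, Mgp and the brightest Ogn probe set, which stands for Ogn in all pairs below, varied together from array to array. Over the 9 arrays Lum and Ogn correlated at Pearson's r = 0.91 (Spearman's rho = 0.90), with an exact two-sided permutation p of 0.000422, or 0.00443 after adjustment over the 21 pairs of genes. Dcn and Ogn had r = 0.88 (rho = 0.95, exact permutation p = 0.000419, adjusted 0.00443). Ogn and Mgp had r = 0.89 (rho = 0.80), Dcn and Mgp 0.87 (rho = 0.80), Dcn and Lum 0.83 (rho = 0.90) and Lum and Mgp 0.82 (rho = 0.73), with adjusted exact permutation p from 0.00809 to 0.0268. By rho, adjusted exact permutation p was 0.00741 for Dcn and Ogn, 0.0142 for Dcn and Lum and for Lum and Ogn, 0.0581 for Dcn and Mgp and for Ogn and Mgp, and 0.109 for Lum and Mgp. The permutations moved arrays across stages, so a difference between stages that 2 genes share enters these p. Without the 2 arrays farthest from the median of the first gene, r stayed between 0.77 and 0.91 for these 6 pairs. Taken as deviations from the stage means, the same pairs had r from 0.76 to 0.90, so the arrays of a stage differed in these genes together. Whether the animals or the quality of their RNA lie behind this was not tested. On Ogn 1383263_at, which correlated with the brightest Ogn probe set at r = 0.84, juvenile replicate 2 was not raised. With Ogn as the mean of its probe sets the median r over all 21 pairs was 0.58, which does not show the Ogn pairs by themselves. How far the Ogn pairs depend on the choice of probe set was not tested.

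Fmod followed the group less closely. It correlated at r = 0.76 with Mgp (rho = 0.57, exact permutation p = 0.0191, adjusted 0.0501), 0.64 with Ogn (rho = 0.47, adjusted exact p = 0.161), 0.62 with Lum (rho = 0.33, adjusted exact p = 0.188) and 0.58 with Dcn (rho = 0.48, adjusted exact p = 0.216). Without the 2 arrays farthest from the median of the first gene of each pair, r was 0.83 with Mgp, 0.75 with Ogn, 0.38 with Lum and 0.48 with Dcn. Within stages its r with Dcn was 0.13. Whether Fmod differs from the others in this was not tested.

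Slc6a13 and Ptgds stood apart from the 5 matrix genes. Their correlations with those genes ran from −0.24 for Lum and Ptgds to 0.52 for Fmod and Ptgds, with a median of 0.22, and adjusted exact permutation p from 0.248 to 0.975. Without the 2 farthest arrays they ran from −0.082 to 0.61, and within stages from −0.69 to 0.14. Slc6a13 and Ptgds correlated with each other at r = 0.81 (rho = 0.71, exact permutation p = 0.0161, adjusted 0.0484), and at 0.33 without juvenile replicate 2 and early pubertal replicate 10, the arrays farthest from the Slc6a13 median. Leaving out juvenile replicate 2 alone gave r = 0.42 and early pubertal replicate 10 alone 0.78, so the relation rests on juvenile replicate 2. The same pair had r = 0.70 within stages and 0.66 at the level as deposited. The sets of 5 and 2 genes were named after the correlations were seen, and no test was made between them. At the level as deposited the 10 pairs of matrix genes had r from 0.63 to 0.93, and the 10 pairs across the sets from −0.031 to 0.41.

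**Figure D4:**
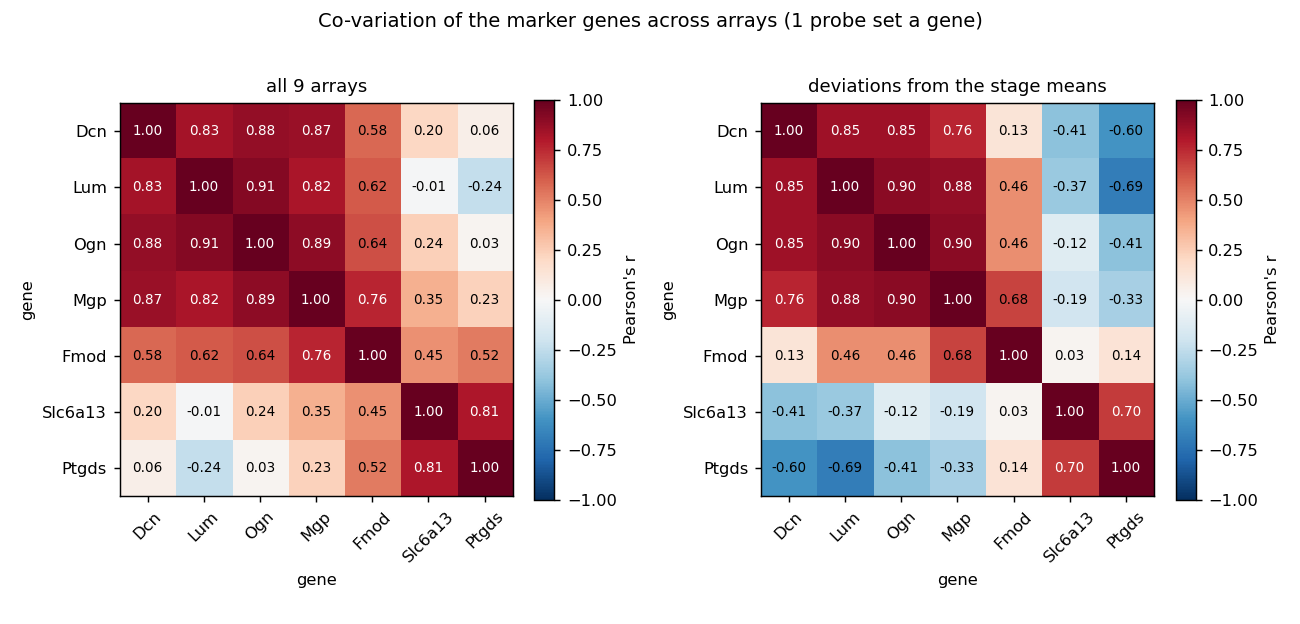
Pearson's r between the 7 genes across the 9 arrays (left) and on deviations from the stage means (right). Each gene has 1 probe set, the brightest for Ogn. Dcn, Lum, Ogn and Mgp form a block with r from 0.82 to 0.91 over all arrays and from 0.76 to 0.90 within stages. Within stages Slc6a13 and Ptgds have negative values with each gene of that block, and values of 0.027 and 0.14 with Fmod.

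Of the other small leucine-rich proteoglycan genes, 10 were listed, 7 have a probe set and 4 were tested, 3 of which were higher in late pubertal than in juvenile animals without passing the test. Omd, which encodes osteomodulin and lies beside Ogn, had levels of 8.04, 8.26 and 7.99 in juvenile, 8.33, 8.03 and 8.69 in early pubertal and 8.22, 8.37 and 8.69 in late pubertal animals. It differed by 0.33 ± 0.17 between late pubertal and juvenile animals. Podn, encoding podocan, had a value of −0.13 ± 0.22 and Bgn, encoding biglycan, 0.089 ± 0.52.

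Among the 36 tested other markers of leptomeninges and fibroblasts, 28 had a positive and 8 a negative difference between late pubertal and juvenile animals, with a median of 0.11, beside 50.8% positive and a median of 0.0022 over all 10600 tested genes. Early pubertal minus juvenile differences were positive for 27 and negative for 9, with a median of 0.085. None passed the adjusted test, and 1 of 36 had an unadjusted p under 0.05 in the late pubertal comparison, with a higher late pubertal level, beside 2.23% of all tested probe sets in that direction. Slc22a6, the organic anion transporter OAT1, differed by 0.70 ± 0.27 in late pubertal and 0.20 ± 0.27 in early pubertal against juvenile animals. Igfbp5, a binding protein of insulin-like growth factors, differed by 0.13 ± 0.10 and 0.32 ± 0.10, and Cpxm1, a carboxypeptidase-like matrix protein, by 0.051 ± 0.16 and −0.36 ± 0.16 in the same order. Col1a1, Col1a2 and Col3a1 encode the main fibril collagens, and are named here after their values were seen. Col1a1 differed by 0.052 ± 0.12, Col1a2 by 0.16 ± 0.16 and Col3a1 by 0.17 ± 0.13 between late pubertal and juvenile animals. Of 19 tested fibril collagens and their partners 11 were higher and 8 lower, with a median of 0.052, and Col5a3 had a value of −0.43 ± 0.15.

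Shorter lists of pathway partners were counted in the same way. Of 17 tested ligands, receptors and mediators of TGF-beta and BMP signalling, which decorin can bind or restrain, 10 were higher and 7 lower in late pubertal than in juvenile animals, with a median of 0.012. Tgfbr3, the betaglycan receptor, differed by −0.36 ± 0.18 and the ligand gene Tgfb2 by −0.23 ± 0.13. Of 7 tested partners of Mgp in vitamin K use and calcification 6 were higher, with a median of 0.088, among them Ggcx, the enzyme that carboxylates Gla proteins, at 0.16 ± 0.15. Of 4 tested genes of prostaglandin synthesis and reception 0 were higher, and Ptgs1, which makes the substrate of Ptgds, had a value of −0.098 ± 0.21. Of 11 tested transporters listed with Slc6a13 5 were higher and 6 lower. Slc32a1, the vesicular GABA transporter of neurons, differed by −0.40 ± 0.10 and Slc13a3, a dicarboxylate transporter, by 0.54 ± 0.17. Retinoic acid synthesis and binding, to which meninges contribute during development, had 9 of 12 tested genes higher and 3 lower, with a median of 0.22. Crabp1 differed by 0.52 ± 0.23, Rbp4 by 0.25 ± 0.13 and Stra6 by −0.11 ± 0.16. None of these genes passed the adjusted test.

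Of the 17 gene lists, 9 had their highest summed normalized signal on early pubertal replicate 10. These were the proteoglycan, leptomeningeal, fibril collagen, TGF-beta and BMP, transporter, retinoic acid, choroid plexus, endothelial and mural lists. Some of the lists share genes, so the 9 are not separate. Col1a1 is on the leptomeningeal and collagen lists, Slc22a6 on the leptomeningeal and transporter lists and Ttr on the retinoic acid and choroid plexus lists. Bright genes also weigh most in such sums. Summed over 36 tested genes, the normalized signal of the other leptomeningeal markers was 18424 to 21508 on juvenile, 18775 to 25102 on early pubertal and 19549 to 22678 on late pubertal arrays, with the highest juvenile sum on replicate 2. Choroid plexus markers, 8 tested of 18, summed to 5557 to 6776, 6168 to 7664 and 6924 to 7484 in the same stages, so that every late pubertal array exceeded every juvenile one. Igf2, a growth factor gene that leptomeninges express too, made up 48.0% to 57.5% of these sums. Without it, a computation added after seeing the data, they were 2563 to 3379 in juvenile, 3042 to 3258 in early pubertal and 3333 to 3603 in late pubertal animals, and late pubertal and juvenile arrays overlapped. The choroid plexus markers were higher in late pubertal than in juvenile animals for 7 of 8, with a median of 0.23, including Igf2 at 0.25 ± 0.12. The choroid plexus genes Kl, Clic6, Otx2, Kcnj13 and Slc4a5 did not pass the filter or have no probe set with 1 symbol. Ttr, the transthyretin gene of choroid plexus, named after its values were seen, had levels of 7.59, 7.62 and 7.63 in juvenile, 7.76, 7.11 and 8.14 in early pubertal and 8.95, 7.93 and 7.28 in late pubertal animals, highest on late pubertal replicate 12. It differed by 0.44 ± 0.35 between late pubertal and juvenile animals. Mural cell markers, 12 tested of 14, summed to 2492 to 3338 in juvenile, 2638 to 4316 in early pubertal and 3231 to 3644 in late pubertal animals. Of the 12, 8 were higher and 4 lower in late pubertal than in juvenile animals, with a median of 0.14. Abcc9, a potassium channel subunit of pericytes, differed by −0.23 ± 0.14 and Tagln, a smooth muscle actin-binding protein, by 0.67 ± 0.27. The part of choroid plexus and vessels in the differences of the 7 genes was not tested.

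Endothelial markers, 15 tested of 17, summed to 5776 to 6166 on juvenile, 5740 to 6480 on early pubertal and 5860 to 6383 on late pubertal arrays. Between late pubertal and juvenile animals 7 of them were higher and 8 lower, with a median difference of −0.14. Oligodendrocyte markers, which bear on Ptgds, were higher for 7 and lower for 7 of 14, with a median of −0.0065. Astrocyte markers were higher for 10 of 12, with a median of 0.075. Of 14 tested macrophage and microglia markers 5 were higher and 9 lower, with a median of −0.061. The complement gene C1qb differed by −0.19 ± 0.15 between late pubertal and juvenile animals and by −0.60 ± 0.15 between late and early pubertal animals. The antigen presentation genes RT1-Da and Cd74, which macrophages at brain borders express, differed by 0.54 ± 0.19 and 0.44 ± 0.16 between late pubertal and juvenile animals. Hypothalamic neuron markers were higher for 8 and lower for 8 of 16. Pituitary markers were higher for 2 of 5 and the 2 tested red cell genes were both higher, with Hbb at 0.12 ± 0.17. An unadjusted limma p under 0.05 with a higher late pubertal than juvenile level was reached by 4 of 12 astrocyte and 3 of 15 endothelial markers. The same held for 3 of 14 macrophage and microglia, 2 of 12 mural and 2 of 16 neuron markers. Of oligodendrocyte, choroid plexus, pituitary and red cell markers 0 did. Of the other leptomeningeal markers 1 of 36 did, beside 2.23% of all tested probe sets. No gene in these lists passed the adjusted limma test.

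The genes whose array-by-array pattern was most like that of the 7 markers were ranked by Pearson's r with the mean standardized profile of the 7, over 10593 other tested genes and 9 arrays. The first was Slc13a3, the sodium-dicarboxylate cotransporter NaDC3, at r = 0.95. Mylk, the myosin light chain kinase of smooth muscle, and Gfap, the filament protein of astrocytes, both had r = 0.93. Ppp1r1a, an inhibitor of protein phosphatase 1, the ribosomal protein gene Rpl23, Kctd14, Fibin and Ifitm2 had r = 0.92, Fgl2, a fibrinogen-like protein, 0.91 and Coch, the matrix protein cochlin, 0.90. Within stages, r with the same profile was 0.96 for Slc13a3, 0.91 for Gfap and 0.84 for Coch. Slc13a3 had levels of 8.68, 8.77 and 8.77 in juvenile, 8.94, 8.61 and 9.42 in early pubertal and 9.13, 9.30 and 9.40 in late pubertal animals, and all late pubertal arrays lay above all juvenile ones. Between late pubertal and juvenile animals Fibin differed by 0.67 ± 0.13, Coch by 0.55 ± 0.19 and Mylk by 0.38 ± 0.12, with limma adjusted p of 0.768, 0.9998 and 0.9998. These are the highest of many correlations over the same arrays, given as a description. The 7 genes did not share 1 pattern. Slc6a13 and Ptgds had a median r of 0.22 with the 5 matrix genes over all arrays and −0.35 within stages. A high r with the mean profile therefore need not hold for each of the 7.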

How the data were processed

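Each deposited value is the intensity signal of 1 probe set on 1 single-channel array, on a linear scale, made by the authors with MAS5 per the submitters' processing notes, whose version and target level were not stated. Stage, age and replicate number were read from titles and source names. No batch or pairing is given. Trimmed means (2% off each end) varied 1.42-fold among arrays, so log2(signal + 16) was quantile-normalized, leaving out 57 control probe sets. Those with a mean above the 40th percentile, 18625 of 31042, entered limma 3.58.1 (R 4.3.3): a mean for each stage, eBayes with intensity trend, two-sided, Benjamini-Hochberg adjusted across them all. The code was tested on simulated data. Fold changes understate those of dim probe sets, no detection calls were used, and the number of arrays limits precision. Probe sets with several symbols (436) or none (9780) were not named.

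Correlations took all 362880 permutations of the arrays. A gene's brightest tested probe set stood for it. Members and 17 gene lists were chosen with earlier results of these data known. The naming rule took all members, up to 3 genes per list with the smallest F-test p (a selection of which is printed) and the 10 genes most like the mean profile of the members. Sequences are RefSeq's (GRCr8), with 4 of 7 members matched. Alternatives were constants of 1 and 64, the deposited level, median centring, no filter, a 60th percentile filter, no trend, Ogn as the mean of its probe sets, stage deviations and leaving out each array.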

Additional observations from a re-analysis of the deposited data

How the results depend on the processing

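No paired analysis was possible because the replicate numbers differ between stages. No probe set of the 7 genes passed the adjusted test under any alternative. Over all tested probe sets, 0 passed in each comparison, beside 772 at an unadjusted p under 0.05 for late pubertal against juvenile, 831 for early pubertal against juvenile, 971 for late against early pubertal animals and 786 by the F test, all from limma. At the deposited level 1, 10 and 21 passed in those comparisons and 16 by the F test. Leaving out 1 array gave 0 to 1 for late pubertal against juvenile animals and for the F test, the 1 without juvenile replicate 2, and 0 otherwise.

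The median difference of the 10 probe sets between late pubertal and juvenile animals kept its direction under every alternative run, from 0.27 to 0.44 without 1 array and 0.33 at the deposited level. Between early pubertal and juvenile animals it was −0.033 at the deposited level and 0.074 to 0.39 without 1 array, and between late and early pubertal animals 0.30 and −0.017 to 0.26. At the deposited level the early pubertal minus juvenile values were −0.12 for Lum, −0.070 for Fmod, −0.055 for Ptgds and −0.032, −0.034 and −0.094 for Ogn 1376749_at, 1385248_a_at and 1390450_a_at. The late minus early pubertal values were 0.19 for Mgp and 0.20 for Slc6a13, beside a shift of all probe sets of −0.24 and 0.22 in those comparisons. With median centring Ptgds was at −0.093 between late and early pubertal animals.

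Leaving out 1 array turned the sign of the early pubertal minus juvenile value of Lum (−0.022 to 0.35) and Ogn 1385248_a_at (−0.032 to 0.47). It also turned that of the late minus early pubertal value of Lum (−0.029 to 0.34), Ogn 1376749_at (−0.061 to 0.29), 1383263_at (−0.076 to 0.24), 1385248_a_at (−0.11 to 0.39) and 1390450_a_at (−0.0050 to 0.35), Mgp (−0.17 to 0.15), Slc6a13 (−0.17 to 0.084) and Ptgds (−0.011 to 0.022). The median correlation over the 21 pairs was 0.58, 0.49 to 0.62 without 1 array and 0.14 on deviations from the stage means. The cause of these changes was not tested.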
